A study of Homo sapiens with 7 samples.

Results

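The genes examined here encode the core proteins of the spliceosome, taken as a fixed list of 52 names and grouped by the particle that each protein belongs to. All 52 were found among the 19978 gene identifiers of the deposited table, and 51 of them passed the expression filter, as did 14863 genes in all. The lists held 8 proteins of the Sm core, 7 of the LSm ring, 4 of U1, 11 of U2, the 2 subunits of U2AF, 3 of U4/U6, 6 of U5, 2 of the tri-snRNP and B complex, 4 of the PRP19 and catalytic stage, and 5 of the minor spliceosome. The member that did not pass was SNRPN, a close relative of SNRPB, which was listed at 0 in 6 libraries and had a single count in acidosis 2. Its values are uncertain, since 73.6% of the 31-base words of its canonical transcript also occur in other genes, most of them in transcripts of SNURF, whose locus it shares.

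RNA was measured in HEK-293 cells, an established human embryonic kidney line, after 48 h of culture, so every value describes 1 cell line at 1 time. The control group (n = 2) was kept at pH 7.4 with the vehicle DMSO, the acidosis group (n = 3) at pH 6.6 with DMSO, and the SRPIN340 group (n = 2) at pH 7.4 with DMSO and 10 µM of this inhibitor of SR protein kinases, so that all groups carried the vehicle. The neuronal filament genes NEFL, NEFM and INA and the vimentin gene VIM, which HEK-293 cells are known to express, were present in every library, PAX2 was at or under 7.06 CPM (counts scaled to the normalized size of the library), and the hepatocyte gene ALB and the leukocyte gene PTPRC were under 1 CPM throughout. Library totals were 23695530 to 24110460 estimated counts in control, 21788457 to 22425450 with SRPIN340 and 13615816 to 21370143 in acidosis. The 100 most abundant genes held 24.1% to 24.8% of the counts in acidosis against 15.2% to 15.4% in the other libraries. Library sizes were therefore scaled with TMM factors, and a change in acidosis is relative to the typical gene. In bulk RNA, less RNA per cell and fewer cells cannot be told apart.

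Introns are removed by small nuclear ribonucleoproteins (snRNPs), each a small nuclear RNA with a set of proteins. The U1 snRNP binds the start of an intron, U2 with its SF3A and SF3B subcomplexes binds the branch site near its end, and U2AF binds the pyrimidine tract and the last bases of the intron. The U4/U6.U5 tri-snRNP then joins, and the PRP19 complex accompanies the rearrangement to the catalytic stage. U1, U2, U4 and U5 carry a ring of 7 Sm proteins, U6 carries the related LSm ring, and a minor spliceosome with its own proteins removes a rare class of introns.

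In acidosis the particles did not move as units. With TMM scaling, transcripts of most Sm and LSm proteins and of all 6 listed SF3B proteins were higher than in control. Those of 4 of the 5 listed minor spliceosome proteins were lower, and U1, U2 and U5 each held members that rose and members that fell. Of the 51 members tested, 26 were higher and 14 lower at an adjusted p under 0.05 (edgeR quasi-likelihood test with Benjamini-Hochberg adjustment over all genes), where 32.5% of all genes were higher and 34.2% lower. At an absolute log2 fold change over 1 as well, 11 members were called higher and 2 lower, where 14.4% of all genes were called higher and 19.1% lower. The median log2 fold change of the members was 0.29, and that of all genes tested was -0.052. The quartiles of all genes tested were -0.83 and 0.66, so changes in both directions were common among all genes. Scaling the libraries by total count only moved the median of all genes to -0.63 and the members' median to -0.28, and the split to 15 higher and 28 lower, beside 16.2% of all genes higher and 55.0% lower.

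**Figure D1:**
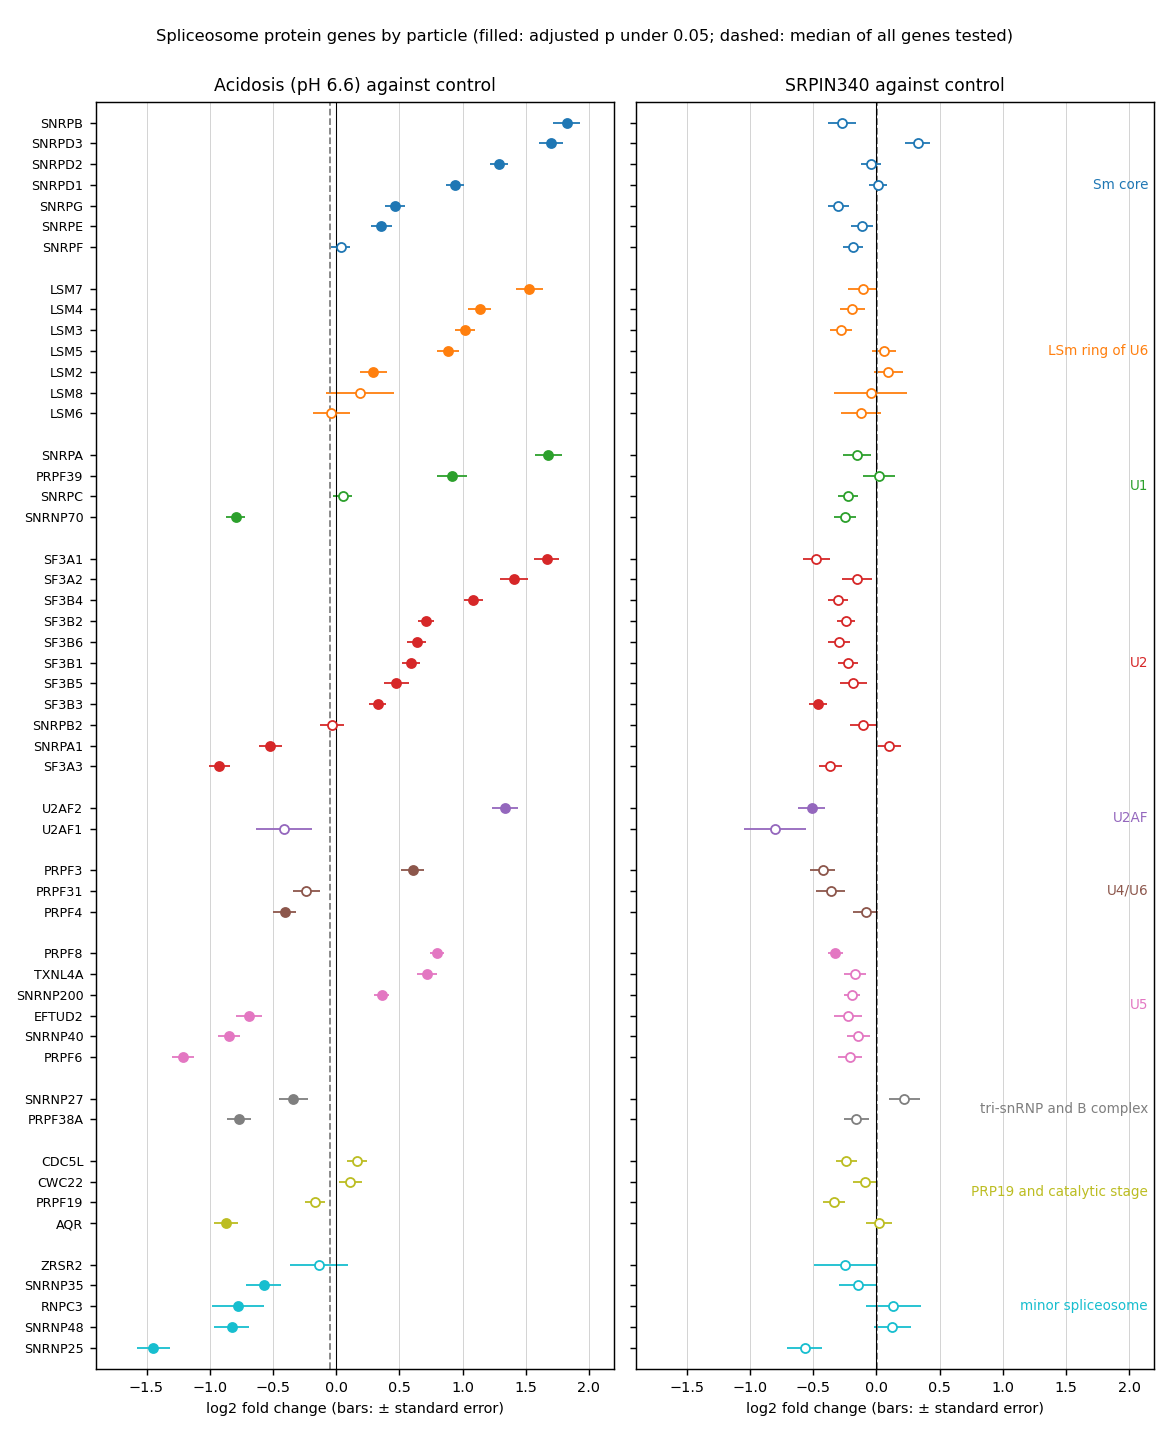
The log2 fold change of each tested member (horizontal axis, ± standard error) is drawn by particle for acidosis against control on the left and for SRPIN340 against control on the right, with filled points at an adjusted p under 0.05. The left panel spreads from -1.45 for SNRNP25 to 1.82 for SNRPB, and the right panel holds 3 filled points, all below 0.

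The Sm ring assembles on the small nuclear RNA in the cytoplasm from SNRPB, the 3 SNRPD proteins, SNRPE, SNRPF and SNRPG. SNRPB (ENSG00000125835.20, chr20:2461634-2470853 of GRCh38, minus strand) was at 213 and 253 CPM in control, 198 and 187 CPM with SRPIN340 and 876, 726 and 869 CPM in acidosis. All 3 acidosis libraries lay far above the other 4, with a log2 fold change of 1.82 (SE 0.11, edgeR adjusted p = 3.63e-07), the highest of the members. SNRPD3 (chr22:24555958-24582052 of GRCh38, plus strand) was at 113 and 111 CPM in control, 151 and 129 CPM with SRPIN340 and 330.2, 389.7 and 372 CPM in acidosis, and its log2 fold change in acidosis was 1.70 (SE 0.095, edgeR adjusted p = 3.11e-07). SNRPD2 went from 177 and 196 CPM in control to 466, 433 and 472 CPM in acidosis, with 184 and 178 CPM with SRPIN340, and SNRPD1 went from 170.1 and 162 CPM to 335, 309 and 312 CPM, with 164 and 171 CPM with SRPIN340. These 4 genes were higher in acidosis under every scaling, with log2 fold changes of 1.29 for SNRPD2 (edgeR adjusted p = 3.14e-07) and 0.94 for SNRPD1 (adjusted p = 1.51e-06).

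The 3 Sm proteins that form a subcomplex of their own moved less. SNRPG and SNRPE had log2 fold changes of 0.46 and 0.36 (edgeR adjusted p = 4.77e-04 and 0.0036), which became -0.11 and -0.22 when libraries were scaled by total count only. SNRPF was at 79.9 and 80.5 CPM in control, 72.1 and 69.0 CPM with SRPIN340 and 81.8, 81.3 and 83.6 CPM in acidosis. Its acidosis values lay within a few CPM of control, and it did not pass, at 0.035 on the log2 scale (SE 0.074, edgeR adjusted p = 0.69). The Sm core as a whole had 6 of 7 tested members higher and a median of 0.94, or 0.37 by total count only, where SNRPE, SNRPF and SNRPG turned negative.

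The LSm ring of LSM2 to LSM8 binds the tail of U6. LSM7 was at 24.7 and 26.0 CPM in control, 24.6 and 22.4 CPM with SRPIN340 and 75.3, 66.5 and 77.3 CPM in acidosis (log2 fold change 1.53, SE 0.11, edgeR adjusted p = 1.34e-06). LSM4 was at 106 and 116 CPM in control, 104 and 90.7 CPM with SRPIN340 and 255, 224 and 251 CPM in acidosis, and LSM3 at 84.2 and 76.1, 65.5 and 66.5 and 156, 172 and 159 CPM in the same order of groups. In these 3 genes every acidosis library exceeded every other library, with log2 fold changes of 1.14 for LSM4 (edgeR adjusted p = 3.37e-06) and 1.02 for LSM3 (adjusted p = 3.14e-06). LSM5 rose by 0.89 and LSM2 by 0.29 on the log2 scale (edgeR adjusted p = 1.47e-05 and 0.038), the second becoming -0.28 by total count only. With the repeat number added to the fit, LSM2 was at 0.21 and did not pass (edgeR adjusted p = 0.16). LSM6, at 14.01 and 12.01 CPM in control, 12.2 and 11.8 CPM with SRPIN340 and 11.6, 13.04 and 13.5 CPM in acidosis, showed overlapping groups and did not pass, at -0.037 on the log2 scale (edgeR adjusted p = 0.84). LSM8, the subunit that distinguishes the nuclear ring from the cytoplasmic one, ranged from 51.5 to 107 CPM among the acidosis libraries alone and did not pass either (0.19, edgeR adjusted p = 0.56). The ring had 5 of 7 members higher and a median of 0.89. Scaled by total count only, 4 were higher and 2 lower, with a median of 0.31, and LSM8 became -0.38.

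The U1 proteins split. SNRPA, which binds a stem-loop of U1 RNA, was at 87.0 and 95.0 CPM in control, 91.3 and 72.3 CPM with SRPIN340 and 299, 274 and 301 CPM in acidosis (log2 fold change 1.68, SE 0.11, edgeR adjusted p = 6.82e-07). SNRNP70, the U1-70K protein that contacts SR proteins, moved the other way, from 225 and 228 CPM in control and 196 and 186 CPM with SRPIN340 to 143, 127 and 122 CPM in acidosis (log2 fold change -0.80, SE 0.078, edgeR adjusted p = 1.21e-05). PRPF39, an accessory protein of U1, rose by 0.92 on the log2 scale (edgeR adjusted p = 8.92e-05), and SNRPC, which steadies U1 on the intron, did not pass at 0.051 (adjusted p = 0.56). SNRPC became -0.52 and passed by total count only, so that 2 members were higher and 2 lower.

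Within U2 the 3 subunits of SF3A moved in opposite directions, while all 6 listed SF3B subunits were higher with TMM scaling. SF3A1 (chr22:30331988-30356919 of GRCh38, minus strand) was at 296 and 236 CPM in control, 186 and 198 CPM with SRPIN340 and 873, 877 and 784 CPM in acidosis (log2 fold change 1.66, SE 0.10, edgeR adjusted p = 5.11e-07). SF3A2 was at 86.6 and 91.0 CPM in control, 82.6 and 77.1 CPM with SRPIN340 and 271, 209.5 and 226 CPM in acidosis (log2 fold change 1.41, edgeR adjusted p = 2.67e-06). SF3A3 (chr1:37956975-37990075 of GRCh38, minus strand) was at 186 and 167 CPM in control, 141 and 133 CPM with SRPIN340 and 90.4, 101 and 87.8 CPM in acidosis, a log2 fold change of -0.92 (SE 0.084, edgeR adjusted p = 7.54e-06). For these 3 genes no acidosis library overlapped a library of another group.

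The SF3B subcomplex holds the branch site adenosine, with SF3B1 as its scaffold. SF3B4 was at 94.3 and 86.6 CPM in control, 75.7 and 71.2 CPM with SRPIN340 and 187, 192 and 197 CPM in acidosis (log2 fold change 1.09, edgeR adjusted p = 1.11e-06). SF3B1 was at 419 and 457 CPM in control, 355 and 395 CPM with SRPIN340 and 667, 634 and 683 CPM in acidosis (log2 fold change 0.60, edgeR adjusted p = 5.06e-05). SF3B2, SF3B6, SF3B5 and SF3B3 rose by 0.71, 0.64, 0.48 and 0.33 on the log2 scale. By total count only, SF3B4 alone of the 6 was higher and SF3B3 was lower at -0.24, SF3B5 became -0.10, and the median of the 6 subunits moved from 0.62 to 0.041. Of the proteins bound to U2 RNA, SNRPA1 fell by 0.52 on the log2 scale (edgeR adjusted p = 5.82e-04), and SNRPB2, its partner, did not pass at -0.033 (adjusted p = 0.77). Of the U2 members in all, 8 of 11 were higher and 2 lower, or 3 higher and 4 lower by total count only.

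The large subunit of U2AF rose and the small one did not. U2AF2, which reads the pyrimidine tract, was at 208 and 227 CPM in control, 155 and 150.1 CPM with SRPIN340 and 623, 494 and 528 CPM in acidosis (log2 fold change 1.34, SE 0.099, edgeR adjusted p = 1.88e-06). U2AF1, which reads the last bases of the intron, was at 236 and 249.2 CPM in control, 92.9 and 185 CPM with SRPIN340 and 174, 203 and 169.6 CPM in acidosis, and did not pass, at -0.42 on the log2 scale (SE 0.22, edgeR adjusted p = 0.12). It was at -0.99 and passed as lower by total count only. Its values are uncertain, because 98.7% of the 31-base words of its canonical transcript also occur in a near-identical gene model that the annotation marks as an artifact of the assembly.

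The U5 proteins were divided, with 3 of 6 higher and 3 lower, or 1 higher and 4 lower by total count only. PRPF8, which sits at the catalytic centre, had the highest CPM of the members, not divided by transcript length. It was at 1210.4 and 1140.5 CPM in control, 963 and 914 CPM with SRPIN340 and 1997, 2105 and 2029.7 CPM in acidosis (log2 fold change 0.80, SE 0.056, edgeR adjusted p = 1.30e-06). PRPF6 (chr20:63981132-64033100 of GRCh38, plus strand), which bridges U5 and U4/U6, was at 80.5 and 87.2 CPM in control, 73.1 and 72.3 CPM with SRPIN340 and 37.2, 33.7 and 37.6 CPM in acidosis, a log2 fold change of -1.21 (SE 0.088, edgeR adjusted p = 1.66e-06). PRPF8 thus rose, short of the fold limit, and PRPF6 fell past it, both without overlap between groups. TXNL4A and the helicase SNRNP200 rose by 0.72 and 0.36 on the log2 scale, while SNRNP40 and the GTPase EFTUD2 fell by 0.85 and 0.69 (edgeR adjusted p = 2.44e-05, 3.93e-04, 1.47e-05 and 2.24e-04). TXNL4A was at 0.14 by total count only and no longer passed (edgeR adjusted p = 0.11), and SNRNP200 became -0.21.

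Among the U4/U6 proteins, PRPF3 was at 50.3 and 52.4 CPM in control, 36.9 and 39.6 CPM with SRPIN340 and 79.3, 82.5 and 72.7 CPM in acidosis (log2 fold change 0.61, edgeR adjusted p = 2.47e-04). Its partner PRPF4 was at 61.3 and 60.5 CPM in control, 57.2 and 57.9 CPM with SRPIN340 and 48.4, 47.2 and 42.1 CPM in acidosis (log2 fold change -0.41, adjusted p = 0.0029). With TMM scaling PRPF3 thus rose and PRPF4 fell, and PRPF31, which binds the U4 stem, did not pass at -0.24 (adjusted p = 0.072). PRPF3 was at 0.03 by total count only and did not pass (edgeR adjusted p = 0.78), and PRPF31 was lower at -0.81 (adjusted p = 8.64e-05). Both tri-snRNP and B complex members fell, PRPF38A by 0.77 and SNRNP27 by 0.34 on the log2 scale (edgeR adjusted p = 5.46e-05 and 0.025).

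At the PRP19 and catalytic stage 1 of 4 members passed with TMM scaling, and all 4 were lower by total count only. AQR, an RNA helicase that binds the intron, was at 58.4 and 64.2 CPM in control, 60.6 and 63.7 CPM with SRPIN340 and 31.4, 35.4 and 33.6 CPM in acidosis (log2 fold change -0.87, SE 0.095, edgeR adjusted p = 2.57e-05). CDC5L, at 222 and 194 CPM in control, 173 and 180.1 CPM with SRPIN340 and 220.2, 242 and 238 CPM in acidosis, overlapped between groups and did not pass, at 0.17 on the log2 scale (adjusted p = 0.085). The ubiquitin ligase PRPF19 and CWC22, which loads the exon junction complex, did not pass at -0.17 and 0.11 (adjusted p = 0.092 and 0.3). By total count only, PRPF19, CDC5L and CWC22 were at -0.74, -0.41 and -0.46.

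Of the minor spliceosome members, 4 of 5 fell in acidosis, and the median was -0.78, or -1.35 by total count only. Among 9 other minor spliceosome genes outside this list, 5 were higher and 2 lower, with a median of 0.33. By total count only these were 2 higher and 4 lower, with a median of -0.24. SNRNP25 (chr16:53828-57669 of GRCh38, plus strand), a protein of the U11/U12 particle, was at 36.2 and 40.6 CPM in control, 24.5 and 27.3 CPM with SRPIN340 and 15.0, 12.2 and 14.9 CPM in acidosis, the lowest log2 fold change of the members at -1.45 (SE 0.13, edgeR adjusted p = 7.19e-06). All 3 acidosis libraries lay below the other 4. SNRNP48, RNPC3, which bridges U11 and U12, and SNRNP35, the U11 counterpart of SNRNP70, fell by 0.83, 0.78 and 0.57 on the log2 scale (edgeR adjusted p = 4.70e-04, 0.0077 and 0.0043). ZRSR2, the U2AF1-related protein that reads the end of minor introns, was at 18.2 and 18.5 CPM in control, 15.9 and 15.0 CPM with SRPIN340 and 12.8, 23.5 and 14.2 CPM in acidosis. Acidosis 2 lay above every control library and the other acidosis libraries below them, and ZRSR2 did not pass, at -0.13 on the log2 scale (edgeR adjusted p = 0.62). It was at -0.71 by total count only, where all 5 were lower.

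**Figure D2:**
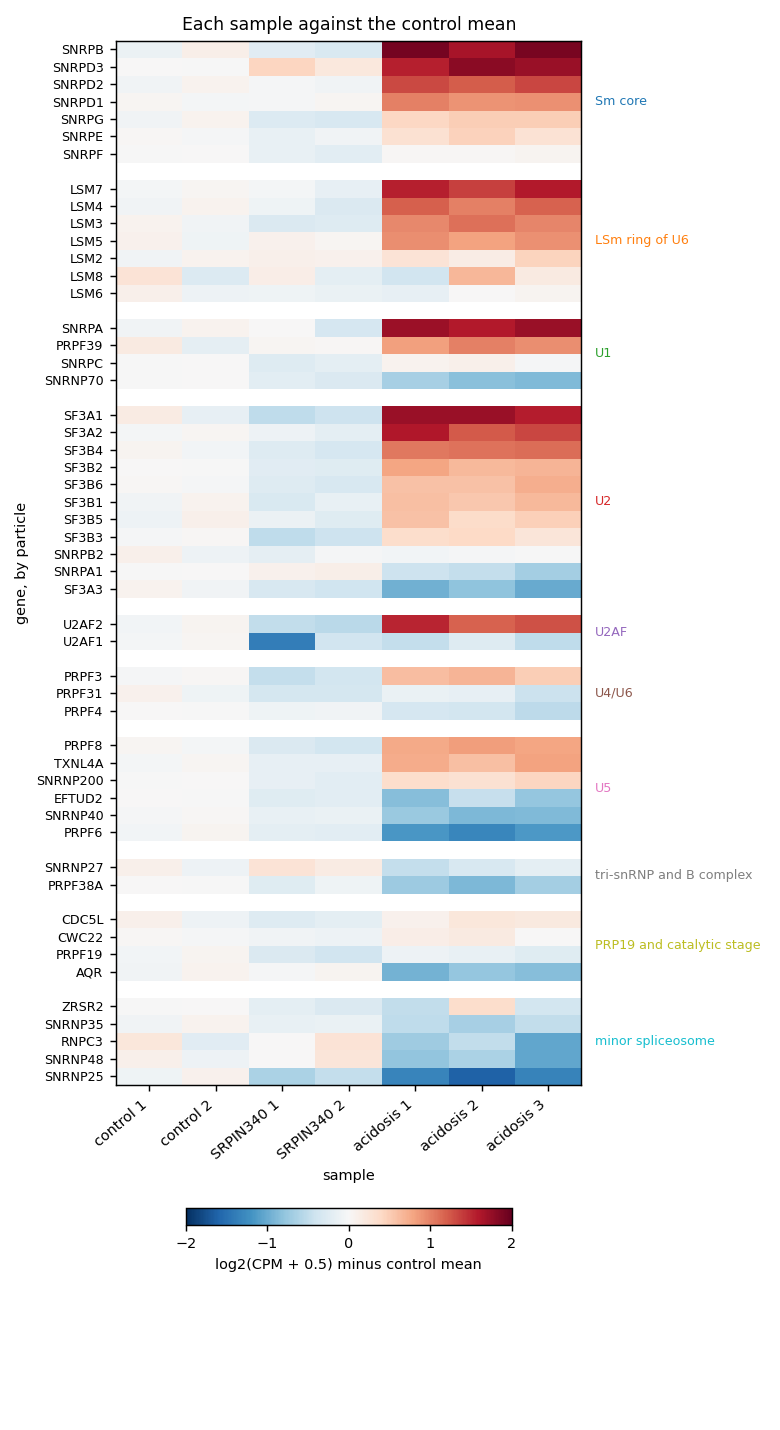
Each row is a tested member and each column a sample, and the colour gives log2(CPM + 0.5) minus the control mean on a scale from -2 (blue) to 2 (red). The 3 acidosis columns are red for most Sm, LSm and SF3B genes, of which SNRPE, SNRPF, SNRPG, LSM2, LSM8, SF3B3 and SF3B5 turn negative by total count only, and blue for SNRNP25, SNRNP35, SNRNP48 and RNPC3, while the SRPIN340 columns are mostly pale blue.

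Ratios between subunits of the same complex need no scaling between libraries. The pairs below were chosen after their values were seen and are a description without a test. SF3A1 to SF3A3 was 1.59 and 1.42 in the control libraries, 1.32 and 1.48 with SRPIN340 and 9.65, 8.70 and 8.93 in acidosis. SF3A2 to SF3A3 was 0.465 and 0.545 in control, 0.585 and 0.579 with SRPIN340 and 3.00, 2.08 and 2.57 in acidosis. The acidosis libraries thus held several times more transcript of these SF3A subunits relative to SF3A3 than any other library. SNRPA to SNRNP70 was 0.386 and 0.416 in control, 0.466 and 0.389 with SRPIN340 and 2.09, 2.16 and 2.46 in acidosis, so that SNRPA passed from below SNRNP70 to above it. PRPF8 to PRPF6 was 15.0 and 13.1 in control, 13.2 and 12.6 with SRPIN340 and 53.6, 62.5 and 54.0 in acidosis. SNRPB to SNRPF was 2.66 and 3.14 in control, 2.74 and 2.72 with SRPIN340 and 10.7, 8.94 and 10.4 in acidosis. In each of these pairs the acidosis libraries stood apart from the other 4, and the SRPIN340 libraries lay at or near the control values. A further pair, SNRPD3 to SNRPF, was 1.41 and 1.38 in control, 2.09 and 1.88 with SRPIN340 and 4.04, 4.80 and 4.45 in acidosis. Its SRPIN340 libraries thus lay above both control libraries.

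**Figure D3:**
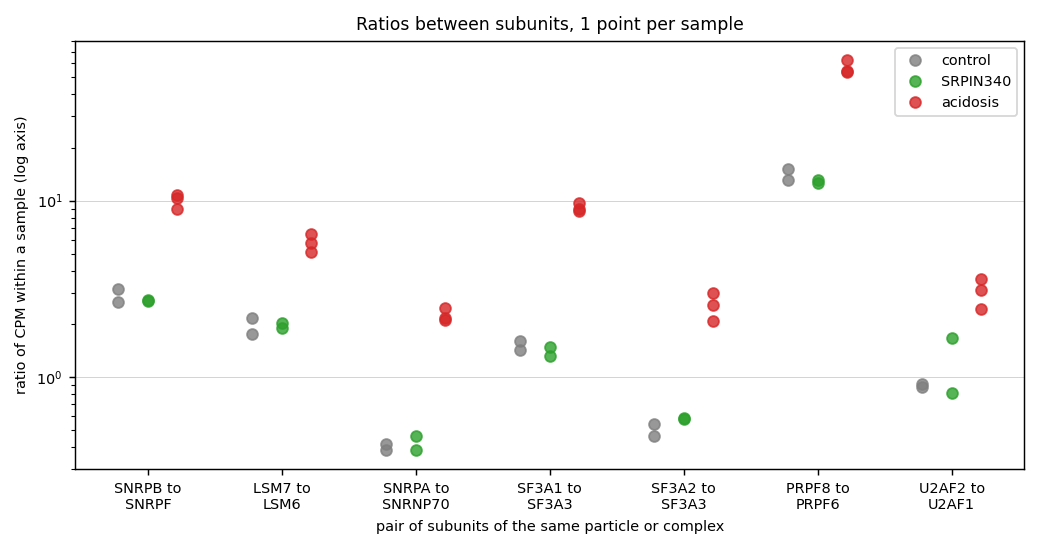
Ratios of CPM between subunits of the same particle or complex are drawn on a log axis, with 1 point per sample in grey (control), green (SRPIN340) and red (acidosis). The acidosis points lie above all others in every pair drawn, and 1 SRPIN340 point of U2AF2 to U2AF1 lies apart from its replicate at 1.67.

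With SRPIN340 few members passed the test, and most values lay slightly below 0. Of the 51 tested, 3 were lower and 0 higher at an adjusted p under 0.05 in the edgeR fit, where 1.53% of all genes were lower and 0.767% higher. At an unadjusted p under 0.05, 22 members were lower (9.48% of all genes) and 1 was higher (8.15% of all genes). No fold change exceeded the limit of 1 on the log2 scale, so 0 members were called in edgeR and in DESeq2, where 0.323% of all genes were called in edgeR. DESeq2 found 12 members lower and 0 higher, where 4.7% of the genes it tested were lower.

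The 3 that passed belong to U2, U5 and U2AF. SF3B3, at 428 and 439 CPM in control, 303 and 327 CPM with SRPIN340 and 552, 571 and 513 CPM in acidosis, had a log2 fold change of -0.46 with SRPIN340 (SE 0.073, edgeR adjusted p = 0.018). PRPF8 had a log2 fold change of -0.32 (SE 0.060, edgeR adjusted p = 0.032) and U2AF2 of -0.51 (SE 0.10, edgeR adjusted p = 0.041), from the values given above. In each of them both SRPIN340 libraries lay below both control libraries, and in acidosis against the same control libraries each was higher, SF3B3 not so by total count only. The count of members passing was 0 without control 1 or without SRPIN340 1, 1 without control 2, SRPIN340 2 or acidosis 3, and 7 without acidosis 2.

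Values below 0 were spread over most particles. The log2 fold change was negative for 41 of 51 members, beside 49.5% of all genes tested, and the median was -0.18 against 0.0024 for all genes. It remained -0.14 when libraries were scaled by total count only. Each SRPIN340 library on its own lay below the control mean in 41 members, with medians of -0.17 and -0.20 on the log2 scale, whereas control 2 against control 1 gave 24 lower and 27 higher with a median of 0.011. Both SRPIN340 libraries were set against the same control mean, and genes are not independent, so these counts are a description. With 2 libraries in each group, a shift shared by the libraries of a group cannot be told apart from the treatment. Both SRPIN340 libraries were under both control libraries in 36 members, where 26.8% of all genes were so, and above them in 4, where 27.3% of all genes were so. The members held 0.870% of all counts in each control library, 0.754% and 0.756% with SRPIN340, and 0.920%, 0.917% and 0.898% in acidosis.

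By particle, all 6 U5 members, all 6 listed SF3B subunits and all 3 U4/U6 members had both SRPIN340 libraries under both control libraries. The medians were -0.20 for U5, -0.27 for SF3B and -0.36 for U4/U6, with SNRNP200, SNRNP40, EFTUD2, TXNL4A and PRPF6 between -0.22 and -0.14. Of these members, SF3B3 and PRPF8 alone passed the adjusted threshold. SF3A1 came next among the U2 members at -0.47 (edgeR adjusted p = 0.053). U2AF1 had the lowest value of all at -0.80 (SE 0.24, edgeR adjusted p = 0.13), but its SRPIN340 libraries were at 92.9 and 185 CPM and lie far apart. In the Sm core the median was -0.11, and SNRPD3 was the 1 member with an unadjusted p under 0.05 in the upward direction, at 0.33 (edgeR adjusted p = 0.13). SNRNP25 was at -0.57 (edgeR adjusted p = 0.071), while RNPC3, SNRNP48 and SNRNP27 had positive values of 0.13, 0.13 and 0.22 that did not pass. The remaining members lay between -0.43 for PRPF3 and 0.10 for SNRPA1.

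**Figure D4:**
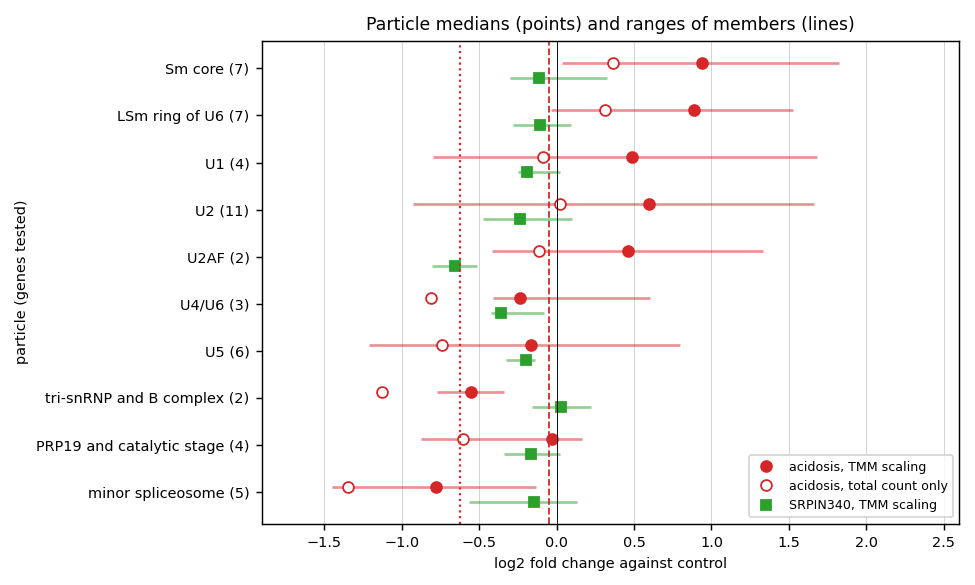
Points are the median log2 fold change of each particle against control and lines the range of its members, for acidosis (red, filled with TMM scaling, open by total count only) and SRPIN340 (green squares), with the medians of all genes in acidosis as dashed (TMM, -0.052) and dotted (total count, -0.63) lines. From the Sm core at 0.94 to the listed minor spliceosome members at -0.78, acidosis medians spread widely, while 9 of 10 SRPIN340 medians lie below 0.

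Tested against SRPIN340 directly, acidosis gave 28 members higher and 14 lower at an adjusted p under 0.05 (edgeR), where 32.8% of all genes were higher and 35% lower. Of these, 13 were called higher (14.9% of all genes) and 1 lower (19.7% of all genes). The 13 were SNRPB, SNRPD2, SNRPD3, LSM3, LSM4, LSM7, SNRPA, SF3A1, SF3A2, SF3B4, U2AF2, PRPF8 and PRPF3, from 1.03 for PRPF3 to 2.14 for SF3A1 on the log2 scale. The 1 called lower was PRPF6 at -1.01, just past the limit, and 0 were called lower by DESeq2 or with RLE size factors. All 7 tested Sm members were higher with TMM scaling, SNRPF included at 0.22 (edgeR adjusted p = 0.025). By total count only SNRPF turned to -0.39 and SNRPE to -0.14, of which the first passed. The members split by total count only into 20 higher and 23 lower, where 15.8% of all genes were higher and 56.9% lower.

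Other genes of the splicing machinery, 91 in 6 lists, were tested in the same fit. In acidosis 39 were higher and 28 lower, 12 of them called higher and 9 lower, with a median of 0.15, beside the 32.5% and 34.2% of all genes that passed and the 14.4% and 19.1% that were called. By total count only, an alternative added after the data were seen, 19 were higher and 52 lower, where 16.2% of all genes were higher and 55.0% lower. Called genes by total count only were 2 higher and 22 lower, so the tallies that follow hold with TMM scaling. Among other U1 and U2 associated proteins 8 of 17 rose and 6 fell, with CHERP at 2.03, PHF5A at 2.02 and SMNDC1 at 1.37 on the log2 scale. PHF5A is itself a subunit of SF3B that is not among the listed members. Among other tri-snRNP and B complex proteins 7 of 16 rose and 2 fell, with UBL5 at 1.53, the cyclophilin PPIH at 1.19 and SNU13 at 1.14. In both lists the called genes, 4 in each, were higher, whereas by total count only the first held 2 genes called higher and 2 called lower and the other 2 called lower. Among other PRP19 and catalytic proteins 9 of 25 rose and 8 fell, with CDC40 at -1.54, BCAS2 at -1.53 and CTNNBL1 at -1.15, the 3 called genes of the list, all lower. Of the other minor spliceosome proteins 5 of 9 rose and 2 fell, with ARMC7 at -2.65, PDCD7 at 1.30 and RBM48 at 1.09. Of the other LSm proteins, 6 of 7 rose. Of the proteins that assemble and import snRNPs, 4 of 17 rose and 10 fell, with GEMIN7 at -1.57 and GEMIN5 at -1.15, and SMN2 at 1.40, although SMN2 and SMN1 are near-identical copies whose reads cannot be told apart. With SRPIN340, DDX46 and DDX39B were lower (-0.69 and -0.51, edgeR adjusted p = 0.013 and 0.035), and 73 of the 91 had negative values with a median of -0.13.

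Levels between members were compared as CPM per kb of the canonical transcript of GENCODE release 44. In control the highest were SNRPD2 at 363, U2AF1 at 257, SNRPB at 215, SNRPF at 177, SNRPG at 165 and PRPF8 at 161 CPM per kb, and among tested members the lowest were LSM8 at 5.54, LSM6 at 5.84, AQR at 6.39 and RNPC3 at 7.32 CPM per kb. In acidosis SNRPD2 and SNRPB reached 887 and 761 CPM per kb. Transcripts of the Sm ring, whose proteins are present in equal numbers, thus differed in control from 32.3 CPM per kb for SNRPD3 to 363 for SNRPD2. The canonical transcript of a gene can differ from those that the cells use, which was not tested. Across members, the log2 fold change in acidosis had a Spearman rho of -0.060 with transcript length and -0.28 with exon number (n = 51), beside -0.083 and -0.083 over all genes, and of 0.52 with mean CPM, beside 0.27. With SRPIN340 the rho was 0.013 with transcript length, -0.28 with exon number and -0.42 with mean CPM. Over all genes these were 0.12, 0.0065 and -0.12. Genes are not independent replicates, and mean CPM contains the acidosis and SRPIN340 libraries.

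Several members have pseudogenes or neighbours with identical stretches, so that their counts are uncertain. Of the 31-base words of the canonical transcript, 54.5% were shared with another gene for SNRPA1, 37.8% for ZRSR2, 33.2% for SNRPG and 26.9% for SF3B4. The share was 21.1% for SNRPF, 21.0% for SF3A3, 19.97% for SNRPD3, 17.2% for SNRNP27 and 16.98% for RNPC3. For SNRPD1, SNRPC, SNRPE and SNRPB it was 16.9%, 16.6%, 14.9% and 12.7%, with SNRNP35 and PRPF3 between SNRPE and SNRPB. Of the words of SNRPD3, 14.35% occurred in a single other gene model. Of the words of SNRPB, 0.19% occurred in coding transcripts of SNRPN and 11.8% in a readthrough gene model that overlaps it. SF3A1, SNRPA, SNRNP70, U2AF2, LSM4, LSM7, PRPF6, PRPF8 and SNRNP25 shared none with another gene of the reference.

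RefSeq promoters of GRCh38.p14, from 250 bases before to 50 after the transcription start, were at hand for 46 of 52 members and 11825 of the genes tested. The letters CCGGAAG, the core bound by ETS family factors, occurred on either strand in 20 of the 46 members (43.5%), in 20.6% of the tested genes and in 10.3% of all 35116 promoters. The run was found in 6 of 11 members called higher in acidosis and in 5 of 13 members lower in acidosis that have a promoter entry. The other motifs searched were CCAAT (41.3% of members, 43.3% of tested genes, 34.6% of all promoters), the GC box GGGCGG (69.6%, 75.9% and 44.95%), the E-box CACGTG (6.52%, 12.3% and 7.26%), the AP-1 site TGACTCA (4.35%, 5.04% and 4.95%) and the cAMP response element TGACGTCA (2.17%, 3.63% and 1.85%), each on either strand, and no motif contains another. A match describes the letters in the window and was not tested for binding. The 150 bases before the start of 4 members are shown because they hold the ETS letters, in capitals, ahead of genes that moved in opposite directions in acidosis, SF3B4 and SNRNP200 upward (SNRNP200 not so by total count only) and PRPF6 and AQR downward. They are written in the direction of transcription and lie at chr1:149927804-149927953 (minus strand), chr2:96305547-96305696 (minus strand), chr20:63980982-63981131 (plus strand) and chr15:34969743-34969892 (minus strand). The stretch of SNRNP200 lies within the annotated span of its gene, and overlap with exons was not tested.
SF3B4: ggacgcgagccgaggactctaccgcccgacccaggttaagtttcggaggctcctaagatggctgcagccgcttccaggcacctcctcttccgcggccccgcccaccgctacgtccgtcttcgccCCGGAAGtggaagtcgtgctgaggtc
SNRNP200: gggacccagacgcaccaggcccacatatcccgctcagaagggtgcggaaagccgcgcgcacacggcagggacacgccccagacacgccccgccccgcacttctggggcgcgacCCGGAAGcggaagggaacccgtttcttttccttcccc
PRPF6: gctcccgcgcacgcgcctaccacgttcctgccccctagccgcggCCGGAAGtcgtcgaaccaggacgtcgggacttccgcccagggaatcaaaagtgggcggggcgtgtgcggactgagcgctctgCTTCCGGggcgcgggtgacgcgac
AQR: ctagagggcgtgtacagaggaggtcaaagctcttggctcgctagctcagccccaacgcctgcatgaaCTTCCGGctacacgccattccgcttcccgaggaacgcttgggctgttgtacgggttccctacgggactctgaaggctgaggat
The same letters thus stood ahead of members of U2 and U5 that rose and of members that fell.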

How the data were processed

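Poly(A)-selected RNA of 7 HEK-293 samples was sequenced. According to the methods of the study the samples of a group are biological repeats, each prepared in replicates, and the table holds 1 column per sample. The authors trimmed reads with Trimmomatic 0.39 and Trim Galore 0.6.6, quantified a GENCODE transcriptome with Salmon 1.5.1 and deposited estimated counts per gene from tximport, which are not normalized between samples. The tximport option and the strand setting are not given in the sources used here. Of 19978 identifiers, 19977 matched GENCODE release 44.

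Counts were rounded to whole numbers and fitted with edgeR 4.0.16 in R 4.3.3 (TMM, filterByExpr, all 7 samples in one quasi-likelihood fit, group as the only term), with Benjamini-Hochberg adjustment over 14863 genes. Genes differed at an adjusted p under 0.05 and were called where the change also exceeded 1 on the log2 scale in either direction. Standard errors were derived from the test statistic. CPM use TMM-scaled totals. DESeq2 1.42.0, RLE size factors, total count only, other filters, the 2 groups alone, a replicate block and each library left out were alternatives. On simulated counts for the 14863 genes, edgeR recovered 76% of genes changed by 1 and 96% of genes changed by 2 on the log2 scale in acidosis, with 10 false calls, and 68% and 94% with SRPIN340, with 17 false calls. Only 200 genes were changed in it, evenly in both directions, with the scaled library sizes of the real data. Far more genes differed in acidosis, so the simulation cannot test the scaling of those libraries.

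Values in every sample are given for members called in acidosis, the highest and lowest member of each particle of 3 or more, members that passed with SRPIN340 and members the study names, and of the other lists up to 3 called genes. The members, lists and particles were chosen with earlier results of these data known, so their counts and medians are descriptions without a p for a list. Splicing itself is not measured by gene counts. Protein sequences were not used here.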

Additional observations from a re-analysis of the deposited data

How the results depend on the processing

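Of 663 log2 fold changes of the 51 members in acidosis over the alternatives other than total count, 642 stayed on their side of the threshold, 13 lost and 8 gained significance, and the sign changed only in values that passed in neither fit. By total count only, which lowers the median of all genes to -0.63, members differing were 15 higher and 28 lower, called members 4 higher and 12 lower, and 11 changed sign, at -0.22 (SNRPE), -0.54 (SNRPF), -0.11 (SNRPG), -0.28 (LSM2), -0.52 (SNRPC), -0.24 (SF3B3), -0.10 (SF3B5), -0.21 (SNRNP200), -0.41 (CDC5L), -0.46 (CWC22) and -0.38 (LSM8, which passed under neither scaling). Against SRPIN340 it gave 20 members higher and 23 lower, where 15.8% of all genes were higher and 56.9% lower. Called members there were 5 higher and 13 lower. With a fold limit of 0.5, acidosis called 32 members (20 higher, 12 lower), SRPIN340 called 1, lower, and acidosis against SRPIN340 called 35 (24 higher, 11 lower). The shares of all genes called at this limit, or by total count only, were not computed, so these called counts cannot be set against all genes. The quartiles of all genes in acidosis against control were -0.83 and 0.66 with TMM scaling, so changes over 0.5 were common.

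With SRPIN340 the 3 members that passed became 12 with DESeq2, 5 with genes of at least 6 CPM and 7 with only these groups in the fit, and 0 to 7 with a library left out. The cause was not tested. Called members with SRPIN340 ranged from 0 to 1 with a library left out, the 1 arising without SRPIN340 2. Members called lower in acidosis ranged from 2 to 4, with 4 without control 2. Against SRPIN340, members called lower in acidosis were 0 with DESeq2, 0 with RLE size factors, 2 with genes of at least 6 CPM, and 1 to 3 with a library left out, 3 without SRPIN340 1 and 2 without acidosis 2.

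The labels' repeat numbers were not used to pair the samples in the main fit. Deviations of same-numbered samples correlated between -0.11 and 0.063. With 2 libraries each in control and SRPIN340, these correlations cannot decide whether same-numbered samples belong together. With the replicate block, 0 members passed with SRPIN340, and LSM2 no longer passed in acidosis against control (edgeR adjusted p = 0.16). In acidosis against SRPIN340, SNRPF and PRPF4 no longer passed (edgeR adjusted p = 0.096 and 0.058). Every count of members other than that with SRPIN340 stayed within 1.5 times its value. The standard error of the acidosis change was largest for LSM8 at 0.27, ZRSR2 at 0.23, U2AF1 at 0.22 and RNPC3 at 0.21, and with 2 control and 2 SRPIN340 libraries each count with SRPIN340 rests on few samples.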
